A study of Rattus norvegicus with 20 samples.

Results

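The miR-17-92 and miR-106b-25 clusters were examined in the adBNST, the anterodorsal part of the bed nucleus of the stria terminalis, of adult rats through the 10 mature miRNAs rno-miR-17-5p, rno-miR-18a-5p, rno-miR-19a-3p, rno-miR-20a-5p, rno-miR-19b-3p and rno-miR-92a-3p of the first cluster and rno-miR-106b-5p, rno-miR-106b-3p, rno-miR-93-5p and rno-miR-25-3p of the second. Members were chosen by name, and the reads assigned to each name were summed in every library, which gave 10 of the 617 miRNAs with reads in any library. All 10 were among the 500 miRNAs that had at least 10 reads in at least 5 libraries and were tested. miR-18a-5p reached that minimum in 8 libraries, 5 of them GH males. miR-19a-3p reached it in 6 libraries, 3 of GH males, 2 of SI males and 1 of a GH female.

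Small RNA was sequenced from the adBNST of 20 Sprague-Dawley rats, 5 in each of 4 groups formed by housing and sex, to ask whether housing during adolescence alters miRNAs in the adult brain. From weaning at 21 days of age, each rat spent 6 weeks either alone in a cage (socially isolated, SI) or with same-sex littermates, 3 to a cage (group housed, GH), until all were 9 weeks old. Every rat had been tested on the elevated plus maze on the day its tissue was taken, so GH and SI rats shared that exposure, and female libraries had been chosen for RNA integrity and for a range of estradiol levels. GH rats were the controls, and each library came from bilateral tissue punches of a separate rat, which hold all the cell types of the region. Cage and litter of each rat are not in the labels used here, so GH libraries can include cagemates and littermates. Neither was modelled, and the tests treated all rats as independent. The libraries held 3428930 to 11383055 miRNA reads (median 6705043). Depth differed by housing, with medians of 4983188 in GH males, 7290553 in SI males, 5276646 in GH females and 6998674 in SI females. Raw read counts of GH and SI groups given below are therefore not on the same scale. Of 190 library pairs, none differed by as little as sampling noise (lowest chi-square per degree of freedom 74.6). The labels of the rats numbered 17 in the SI groups give a male and a female, and the names of their deposited files give the opposite sexes. The labels were followed, and the members' edgeR housing calls made with all libraries are also given without these 2. In bulk tissue, fewer cells of a type and less of a miRNA per cell cannot be told apart.

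A miRNA cluster is transcribed as a single primary transcript from which several hairpins are cut, and either arm of a hairpin can give a mature miRNA. A mature miRNA recognizes its target mRNAs mainly through its seed, bases 2 to 8, so miRNAs with the same seed share many predicted targets. The miR-17-92 cluster, known for promoting cell proliferation and for roles in neural progenitors, and its relative miR-106b-25, which lies in an intron of the replication gene Mcm7, arose by duplication and carry members of the same seed families.

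The mature sequences are shown first because the comparison turns on which members share a seed. They are written 5′ to 3′ with the seed in capitals, as annotated by RefSeq on GRCr8, and each was identical to the reference form in the deposited reads. The members with the seed AAAGUGC were the following.
miR-17-5p: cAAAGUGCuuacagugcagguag
miR-20a-5p: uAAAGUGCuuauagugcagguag
miR-93-5p: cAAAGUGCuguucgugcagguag
miR-106b-5p: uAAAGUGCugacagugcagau
Counted from 1 at the 5′ end, miR-17-5p and miR-20a-5p were identical at 21 of 23 bases (C1U and C12U from miR-17-5p to miR-20a-5p). miR-17-5p and miR-93-5p were identical at 19 of 23 bases, with all 4 differences between positions 10 and 13 (U10G, A11U, C12U, A13C). miR-17-5p and miR-106b-5p were identical at 18 of the 21 bases compared (C1U, U10G, G20A).

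The members with the seeds GUGCAAA and AUUGCAC formed 2 further pairs, and miR-92b-3p is printed with them because it was the most abundant miRNA of the AUUGCAC family.
miR-19a-3p: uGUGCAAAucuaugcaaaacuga
miR-19b-3p: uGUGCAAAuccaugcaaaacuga
miR-92a-3p: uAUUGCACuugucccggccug
miR-25-3p: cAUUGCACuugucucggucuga
miR-92b-3p: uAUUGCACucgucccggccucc
miR-19a-3p and miR-19b-3p were identical at 22 of 23 bases (U11C). miR-25-3p and miR-92a-3p were identical at 18 of the 21 bases compared (C1U, U14C, U18C). The other members had seeds of their own, shared with no other annotated rat miRNA among the 693 mature sequences examined.
miR-18a-5p: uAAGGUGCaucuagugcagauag
miR-106b-3p: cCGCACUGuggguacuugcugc

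In GRCr8 the miR-17-92 members lay on the plus strand of chromosome 15, with miR-17-5p at chr15:98587861-98587883, miR-18a-5p at chr15:98588000-98588022, miR-19a-3p at chr15:98588179-98588201, miR-20a-5p at chr15:98588318-98588340, miR-19b-3p at chr15:98588486-98588508 and miR-92a-3p at chr15:98588602-98588622. The miR-106b-25 members lay on the minus strand of chromosome 12 within Mcm7, with miR-106b-5p at chr12:22157103-22157123, miR-106b-3p at chr12:22157062-22157083, miR-93-5p at chr12:22156894-22156916 and miR-25-3p at chr12:22156652-22156673. A related cluster on the minus strand of the X chromosome holds further copies of 3 mature sequences, miR-17-5p at chrX:137343615-137343637, miR-19b-3p at chrX:137343070-137343092 and miR-92a-3p at chrX:137342945-137342965. Reads of those 3 miRNAs can therefore come from either locus. The miRNAs particular to the X-linked cluster gave few reads. Of 6 names looked for, miR-363-3p and miR-363-5p alone had reads, with group medians of their summed level of 0 to 0.779 reads per 1000000 miRNA reads (RPM). The names miR-106a-5p and miR-18b-5p were not among the annotated rat mature sequences examined, so nothing is read from their lack of reads.

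The members covered a wide range of levels. miR-92a-3p was the most abundant, at 2910 ± 571 RPM (SD, n = 20), which ranked 53 among the 617 miRNAs, and miR-25-3p followed at 1073 ± 294 RPM, ranked 94. Both carry the AUUGCAC seed. miR-93-5p had 229 ± 68.5 RPM and miR-106b-3p had 147 ± 37.2 RPM. The remaining 6 members were scarce, with miR-106b-5p at 20.4 ± 15.4 RPM, miR-20a-5p at 18.4 ± 9.28 RPM, miR-17-5p at 12.3 ± 7.89 RPM, miR-19b-3p at 7.19 ± 6.61 RPM, miR-18a-5p at 2.07 ± 2.97 RPM and miR-19a-3p at 0.978 ± 1.31 RPM. The mature sequences are 21 to 23 bases long, so no correction for length was made.

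Within a library, miR-92a-3p exceeded miR-25-3p, miR-25-3p exceeded miR-93-5p, and miR-106b-3p exceeded miR-106b-5p in 20 of 20 libraries, and the ranges of these neighbours over the libraries did not overlap. All other neighbours in the order overlapped. miR-93-5p exceeded miR-106b-3p in 15 libraries, miR-106b-5p exceeded miR-20a-5p in 12, miR-20a-5p exceeded miR-17-5p in 15, miR-17-5p exceeded miR-19b-3p in 16 and miR-19b-3p exceeded miR-18a-5p in 15. miR-18a-5p exceeded miR-19a-3p in 7 libraries. miR-19b-3p had 899 reads over all libraries, miR-18a-5p 215 and miR-19a-3p 119, and the order of the last 2 was not detectable at this depth.

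The miR-17-92 cluster was thus represented almost entirely by its last member. miR-92a-3p made up 98.5 ± 0.923% of the reads of the 6 miR-17-92 members (n = 20), and the other 5 together gave 40.9 ± 19.8 RPM. In miR-106b-25, miR-25-3p made up 72.4 ± 5.32% of the reads of the 4 members. Among the 4 members with the seed AAAGUGC, miR-93-5p held 82.2 ± 5.09% of the reads, so the scarce miR-17-5p, miR-20a-5p and miR-106b-5p shared the rest. The miR-106b-25 members together held 33.3 ± 4.64% of the reads of all 10. In the AUUGCAC family as a whole, miR-25-3p and miR-92a-3p were the minor part, at 15.5 ± 3.01% of its reads, because miR-92b-3p, a relative encoded alone on chromosome 2, had 23026 ± 8517 RPM.

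**Figure D1:**
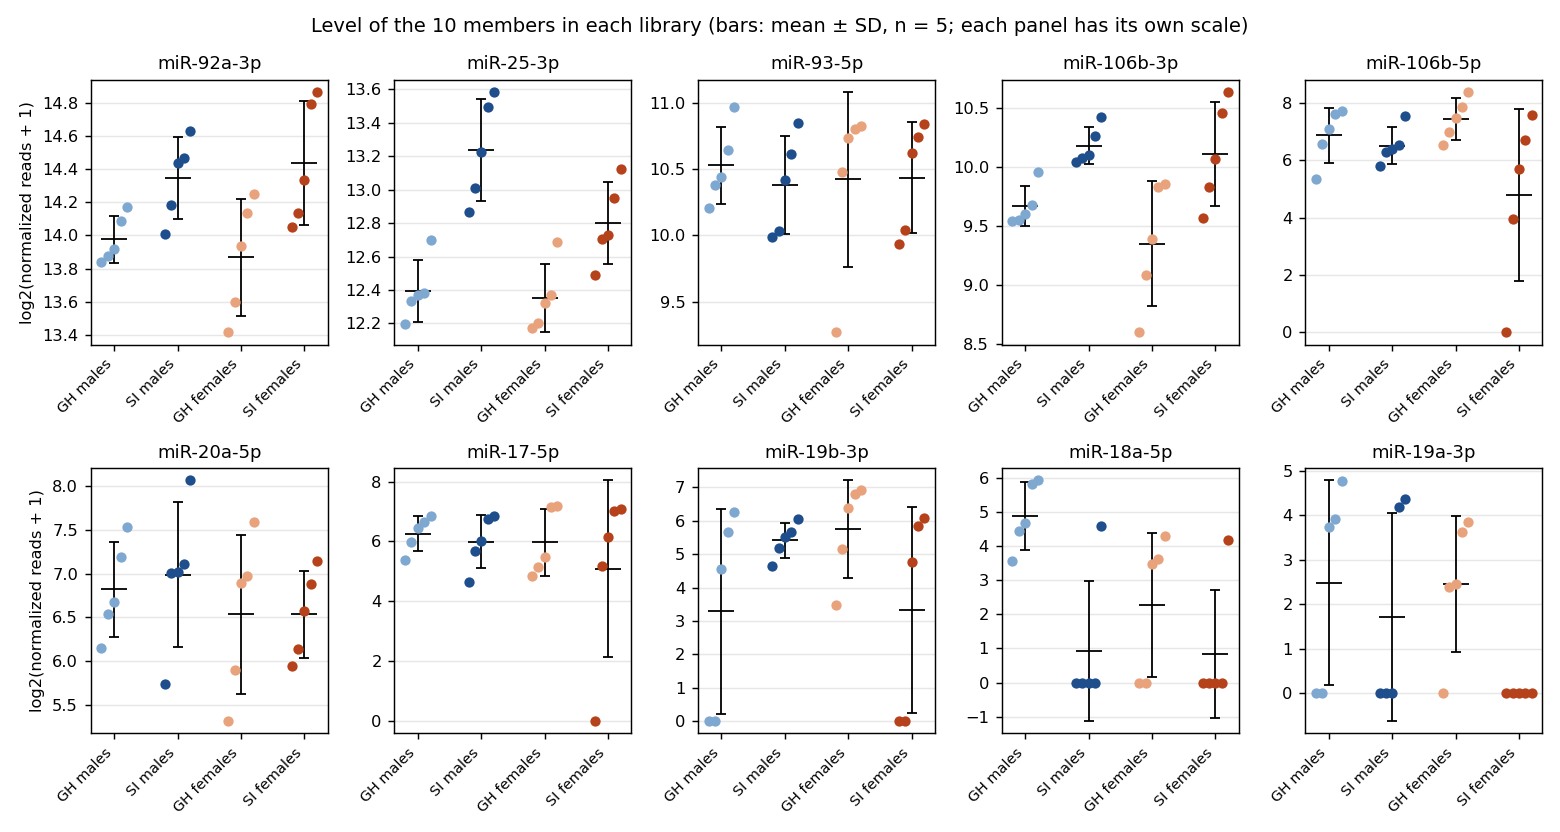
Level of each of the 10 members in each of the 20 libraries, as log2 of normalized reads plus 1, by group; each point is a rat, the horizontal bar is the mean and the whiskers are the SD (n = 5), and each panel has its own scale. The 5 SI males lie above all 5 GH males for miR-25-3p and miR-106b-3p, and miR-19a-3p has no listed read in any SI female.

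Housing was compared within each sex and as the mean of the male and the female effect, with edgeR's quasi-likelihood F test over all 500 miRNAs and Benjamini-Hochberg adjustment. Averaged over the sexes, 3 of the 10 members rose in SI rats, miR-25-3p, miR-106b-3p and miR-92a-3p, and none fell (edgeR, adjusted p under 0.05). Counted over all miRNAs tested in that comparison, 17.6% passed, 7.40% higher and 10.2% lower. The 3 members that rose were the 2 most abundant, both with the seed AUUGCAC, and the 3p arm of miR-106b, and they came from both clusters. At an unadjusted p under 0.05 32.2% of all miRNAs passed, and a single member, miR-19a-3p, was lower, where 18.4% of all miRNAs were. DESeq2 called the same 3 members higher and none lower, where 22.5% of miRNAs passed, 9.39% higher and 13.1% lower. The median log2 fold change was -0.11 over the 10 members and -0.00 over all 500 miRNAs, with 4 members and 49.6% of all miRNAs above 0.

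miR-25-3p had the most reads of the miR-106b-25 members and the lowest adjusted p of the 10. In GH males it was at 737, 1185, 873, 815 and 854 RPM, and in SI males at 1774, 1065, 1446, 1305 and 1673 RPM. In GH females it was at 731, 887, 967, 996 and 908 RPM, and in SI females at 889, 1081, 1108, 1290 and 886 RPM. In RPM the male groups overlapped at a single GH rat, which on the normalized scale fell below every SI male, and the female groups overlapped in both scales. Averaged over the sexes its log2 fold change was 0.66 (SE 0.13, edgeR adjusted p = 0.0039). In males alone it was 0.86 (SE 0.19, edgeR adjusted p = 0.011), and miR-25-3p was the only member called there, where 4.0% of all miRNAs passed and 1.40% were higher. DESeq2 likewise called miR-25-3p alone in males (log2 fold change 0.86, DESeq2 adjusted p = 0.00016), where 10.2% of miRNAs passed. In females alone it was 0.45 (SE 0.19, edgeR adjusted p = 0.16).

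The male result for miR-25-3p passed in 18 of the 20 fits that left out a library, and missed the threshold without SI male 15 (log2 fold change 0.75, edgeR adjusted p = 0.054) or SI male 20 (0.72, adjusted p = 0.056). With both rats numbered 17 left out it was 0.88 (edgeR adjusted p = 0.020), and with their sexes exchanged 0.85 (adjusted p = 0.022). The average over the sexes passed in 20 of 20 such fits, with log2 fold changes from 0.59 to 0.70.

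miR-106b-3p, the more abundant arm of the miR-106b hairpin, was at 118, 177, 122, 130 and 126 RPM in GH males and at 153, 156, 186, 217 and 156 RPM in SI males. It was at 104, 152, 102, 140 and 76.1 RPM in GH females and at 141, 123, 150, 204 and 208 RPM in SI females. GH male 19, at 177 RPM, was the only GH male inside the SI range in RPM, and none was inside it on the normalized scale. Averaged over the sexes the log2 fold change was 0.63 (SE 0.18, edgeR adjusted p = 0.021). It was 0.51 (SE 0.26, edgeR adjusted p = 0.22) in males and 0.74 (SE 0.26, edgeR adjusted p = 0.11) in females. The averaged call was lost when a trend on GC content was removed within each library, an alternative chosen after seeing the data (0.34, edgeR adjusted p = 0.17). miR-25-3p and miR-106b-3p were the members whose male groups did not overlap on the normalized scale, where 13.8% of all miRNAs tested did not overlap. In females, 2.0% of miRNAs and no member did not overlap.

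miR-92a-3p was at 2895, 3095, 2401, 2445 and 2422 RPM in GH males and at 3267, 2349, 2807, 4003 and 3217 RPM in SI males. It was at 2793, 2622, 2061, 2941 and 2442 RPM in GH females and at 2628, 2906, 2892, 4312 and 3697 RPM in SI females. The groups overlapped in both sexes, with the highest values in SI male 17 and SI female 12. Averaged over the sexes the log2 fold change was 0.48 (SE 0.14, edgeR adjusted p = 0.026), with 0.38 (SE 0.20, adjusted p = 0.26) in males and 0.57 (SE 0.20, adjusted p = 0.11) in females. The average was lost in 4 of the 20 fits that left out a library, without SI male 17 (0.43, edgeR adjusted p = 0.055), GH female 16 (0.43, adjusted p = 0.052), GH female 17 (0.44, adjusted p = 0.053) or SI female 12 (0.40, adjusted p = 0.058). It was also lost with the GC trend removed (0.31, edgeR adjusted p = 0.10). Without both rats numbered 17, the averages of miR-92a-3p (0.45, edgeR adjusted p = 0.066) and miR-106b-3p (0.60, adjusted p = 0.051) missed the threshold and that of miR-25-3p (0.66, adjusted p = 0.017) did not. With the sexes of those rats exchanged, all 3 averages passed.

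No member was called in females by edgeR, where 0.400% of all miRNAs passed and the lowest adjusted p of a member was 0.11. At an unadjusted p under 0.05, 3 members were higher in SI females (miR-25-3p, miR-92a-3p and miR-106b-3p) and miR-19a-3p was lower, beside 9.80% of all miRNAs higher and 11.0% lower, 20.8% in all. DESeq2, which called 11.4% of miRNAs in females and 5.46% as higher, called miR-92a-3p (log2 fold change 0.61, DESeq2 adjusted p = 0.037) and miR-106b-3p (0.79, adjusted p = 0.025) and left miR-25-3p at an adjusted p of 0.055. Without SI female 10, edgeR also called miR-92a-3p (0.68, edgeR adjusted p = 0.039) and miR-106b-3p (0.89, adjusted p = 0.035) in females, where 63 of the 500 miRNAs passed. The female and male effects themselves were compared by an interaction term. No member passed it (lowest edgeR adjusted p = 0.70, no member at an unadjusted p under 0.05, none by DESeq2), and 0.400% of all miRNAs did (7.20% at an unadjusted p under 0.05, 1.02% by DESeq2). For miR-25-3p the female effect minus the male effect was -0.41 (SE 0.27, edgeR adjusted p = 0.81), so a larger effect in males was not shown.

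Females were also compared with males, averaged over housing. No member and none of the 500 miRNAs passed (edgeR, 0 called, with 25 miRNAs, 5.0%, at an unadjusted p under 0.05; DESeq2 called 2 miRNAs, 0.341%, none of them a member). miR-19a-3p, which is listed at 0 in all SI females, was the only member at an unadjusted p under 0.05, where 3.40% of all miRNAs were lower in females. Of the 6 libraries through which it met the count minimum, 3 were GH males, 2 SI males and 1 a GH female, so nothing is read from this. For miR-25-3p the difference, females minus males, was -0.24 on the log2 scale (SE 0.13, edgeR adjusted p = 0.98), and for miR-92a-3p it was 0.02 (SE 0.14, edgeR adjusted p = 0.997).

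**Figure D2:**
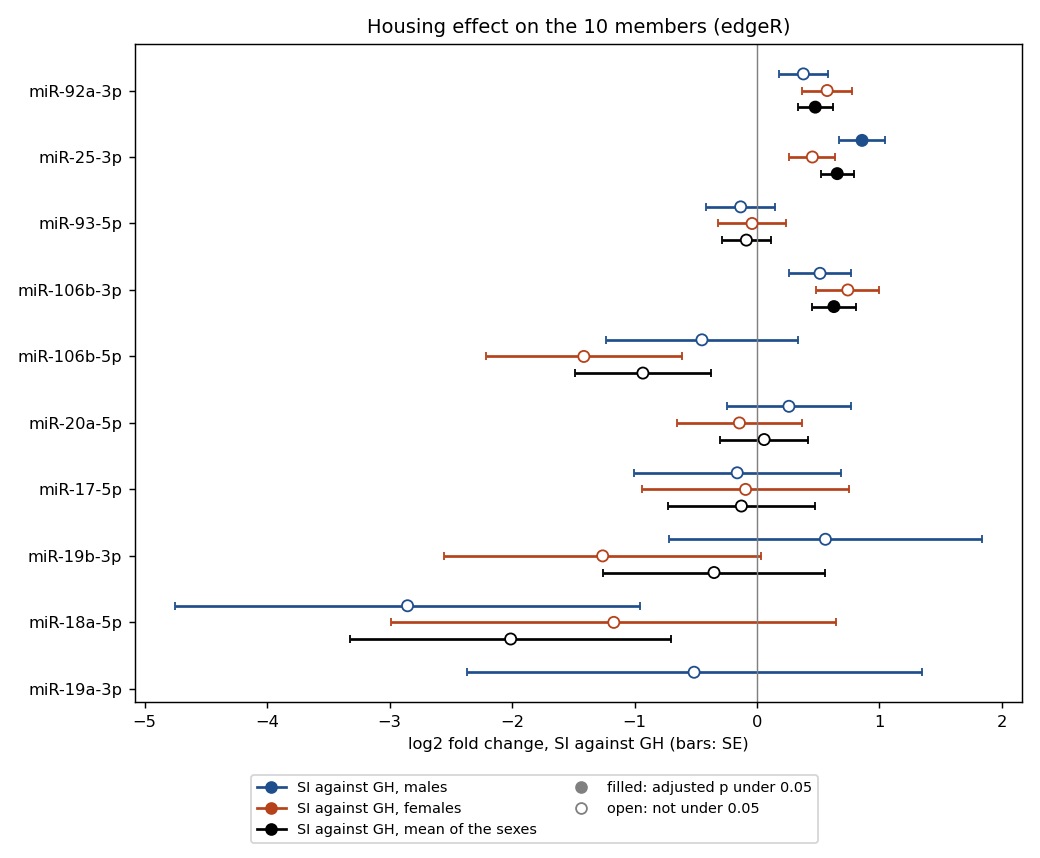
Log2 fold change of SI against GH for each member, from the edgeR fit over 500 miRNAs, in males, in females and as the mean of the sexes; points are estimates, bars are standard errors, filled points have an adjusted p under 0.05, and miR-19a-3p is shown for males only because it is listed at 0 in all SI females. The means for miR-25-3p (0.66), miR-106b-3p (0.63) and miR-92a-3p (0.48) are filled and lie to the right of 0. The scarce members have wide bars and open points, and the bars of the means of miR-106b-5p and miR-18a-5p lie to the left of 0.

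The members with the seed AAAGUGC, by contrast, gave no call in any comparison. miR-93-5p, the most abundant of them, was at 185, 237, 227, 316 and 259 RPM in GH males and at 227, 194, 153, 166 and 267 RPM in SI males. It was at 95.3, 238, 343, 270 and 336 RPM in GH females and at 244, 296, 147, 248 and 127 RPM in SI females. The groups overlapped broadly in both sexes, and the averaged log2 fold change was -0.09 (SE 0.20, edgeR adjusted p = 0.84). miR-93-5p lies between miR-106b and miR-25 in the same transcript, and those hairpins gave miR-106b-3p and miR-25-3p, which rose. The difference between miR-93-5p and its neighbours was not tested as such.

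miR-106b-5p, the 5p arm of miR-106b and the partner of miR-106b-3p in the duplex, was at 21.3, 6.999, 34.3, 30.7 and 15.1 RPM in GH males and at 11.2, 26.4, 13.9, 8.64 and 11.9 RPM in SI males. It was at 14.01, 29.9, 62.9, 19.1 and 45.2 RPM in GH females and at 16.1, 30.6, 7.17, 2.09 and 0 RPM in SI females. The groups overlapped in both sexes, and GH female 16 and SI female 16 were the highest and the lowest of all rats. The averaged log2 fold change was -0.93 (SE 0.56, edgeR adjusted p = 0.27).

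miR-20a-5p ranged from 11.0 to 29.1 RPM in GH males and 7.94 to 42.0 RPM in SI males, and from 5.87 to 36.2 RPM in GH females and 9.74 to 18.2 RPM in SI females. Its averaged log2 fold change was 0.06 (SE 0.36, edgeR adjusted p = 0.95). miR-17-5p, the cluster's first member, ranged from 6.42 to 18.8 RPM in GH males and 3.65 to 16.4 RPM in SI males, and from 4.64 to 28.0 RPM in GH females and 0 to 22.0 RPM in SI females. Its averaged log2 fold change was -0.13 (SE 0.60, edgeR adjusted p = 0.94). With intervals this wide, a change of miR-17-5p or miR-20a-5p of the size measured for miR-25-3p was not detectable. Summed over the 4 members with this seed, the level was 299 ± 61.3 RPM in GH males, 248 ± 48.1 RPM in SI males, 324 ± 137 RPM in GH females and 249 ± 88.8 RPM in SI females (n = 5 each).

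The members with the seed GUGCAAA and miR-18a-5p were close to the lower end of what these libraries detect. A library lists a sequence only from 2 reads upward, so a listed 0 is no measured absence. miR-19b-3p had 0, 0, 30, 29 and 98 reads in GH males, 81, 77, 17, 51 and 36 in SI males, 44, 75, 116, 8 and 79 in GH females and 0, 69, 62, 27 and 0 in SI females. Its averaged log2 fold change was -0.35 (SE 0.90, edgeR adjusted p = 0.85), with 0.56 in males and -1.26 in females. miR-19a-3p had 0, 0, 16, 16 and 18 reads in GH males, 0, 20, 0, 0 and 20 in SI males and 0, 4, 13, 9 and 3 in GH females, and it was listed at 0 in all 5 SI females. No fold change is given against that group (edgeR adjusted p = 0.12 averaged over the sexes and 0.15 in females). Of the 6 libraries through which miR-19a-3p met the count minimum, 3 were GH males and none was an SI female. Its inclusion thus depended on the other groups, and nothing is read from its lower values in SI rats or in females.

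miR-18a-5p had 47, 34, 15, 14 and 27 reads in GH males, and in SI males it was listed at 0 in 4 rats and had 27 reads in SI male 19. GH females had 0, 17, 0, 8 and 8 reads, and of the SI females a single rat, number 10, had 18 reads. The averaged log2 fold change was -2.01 (SE 1.31, edgeR adjusted p = 0.31). Of the 8 libraries through which miR-18a-5p met the count minimum, 5 were GH males, the group where it is highest, so its inclusion itself depended on that group. Without SI male 19 or without SI female 10 a whole SI group is listed at 0. edgeR then gave adjusted p-values of 0.041 in each case, for which no fold change is given and from which nothing is read, and the other 18 fits that left out a library gave no call.

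Summed by cluster, the miR-106b-25 members were at 1294 ± 196 RPM in GH males and 1842 ± 299 RPM in SI males, and at 1303 ± 211 RPM in GH females and 1439 ± 207 RPM in SI females. The miR-17-92 members were at 2696 ± 312 RPM in GH males and 3168 ± 620 RPM in SI males, and at 2621 ± 310 RPM in GH females and 3317 ± 702 RPM in SI females. The make-up of miR-106b-25 differed more between the housing groups in males than in females, a difference that was not tested. miR-25-3p held 68.8 ± 3.83% of its members' reads in GH males and 78.5 ± 3.17% in SI males, against 69.4 ± 4.76% and 72.9 ± 3.63% in GH and SI females. The share of miR-106b-25 in the reads of all 10 members was 32.4 ± 3.23% in GH males and 37.0 ± 4.27% in SI males, and 33.3 ± 5.61% in GH females and 30.6 ± 3.88% in SI females, differences close to or below the SD between rats. These sums and shares follow their most abundant member and were not tested.

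Relatives outside the 10 members were examined by the same fit. Of the 11 other arms of these hairpins, 7 had reads and 3 were tested, and none passed in any comparison (lowest edgeR adjusted p = 0.10 averaged over the sexes, in females 0.14 and in males 0.73). Among them miR-25-5p, the other arm of the miR-25 hairpin, had an averaged log2 fold change of 0.55 (SE 0.24, edgeR adjusted p = 0.10), miR-93-3p 0.50 (SE 0.87, adjusted p = 0.76) and miR-18a-3p -1.09 (SE 1.39, adjusted p = 0.66). In the AUUGCAC family, miR-92b-3p rose in SI rats, with an averaged log2 fold change of 0.75 (SE 0.21, edgeR adjusted p = 0.014), 0.67 in males (adjusted p = 0.16) and 0.83 in females (adjusted p = 0.11). Its level was 18581 ± 4418 RPM in GH males and 26916 ± 10437 RPM in SI males, and 18419 ± 5694 RPM in GH females and 28187 ± 8959 RPM in SI females. The scarce miR-32-5p, of the same seed, passed in the opposite direction (edgeR adjusted p = 0.041 averaged over the sexes), but it was listed at 0 in every SI male and had at most 72 reads in any library, so no fold change is given. miR-367-3p, also looked for, was not among the 5 annotated rat miRNAs with this seed, so nothing is read from its lack of reads. Of the 5 annotated AUUGCAC miRNAs, 3 therefore rose, miR-25-3p, miR-92a-3p and miR-92b-3p, beside 7.40% of all miRNAs tested, and they were the abundant ones. Calls were commoner among well-read miRNAs, at 33.2% in either direction of the 307 with at least 10 counts in every library. Within groups the levels of miR-92a-3p and miR-92b-3p also moved together (Pearson r = 0.83), so their calls are not independent. The call of miR-92a-3p was lost in some of the alternatives given above. miR-92b-3p, at 63.6% GC, was not followed through the fits that left out libraries or removed the GC trend.

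The 2 arms of miR-106b were set against each other because it is the hairpin with both arms among the members. Their estimates had opposite signs, and that of miR-106b-5p was not called. miR-106b-3p made up 84.7, 96.2, 78.0, 80.9 and 89.3% of the reads of both arms in GH males and 93.1, 85.6, 93.0, 96.2 and 92.9% in SI males. It made up 88.1, 83.6, 62.0, 87.9 and 62.7% in GH females and 89.7, 80.0, 95.4, 99.0 and 100% in SI females. The groups overlapped in both sexes, and GH females 16 and 17 lay below all other rats. On log2((3p + 0.5)/(5p + 0.5)), fitted with limma over the 158 hairpins with both arms tested, the averaged difference of SI from GH was 2.22 (SE 0.88, limma adjusted p = 0.10), with 0.87 (SE 1.24, adjusted p = 0.67) in males and 3.57 (SE 1.24, adjusted p = 0.13) in females. Over all hairpins 10.1% passed for the average and 0 passed within either sex (limma, 18.4% in males and 22.2% in females at an unadjusted p under 0.05, and 33.5% for the average). The average moved between 1.49 and 2.66 when single libraries were left out, and passed in 1 of 20 such fits, without SI female 10 (limma adjusted p = 0.031). The arm ratio of miR-25 differed by 0.17 (SE 0.27, limma adjusted p = 0.67).

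**Figure D3:**
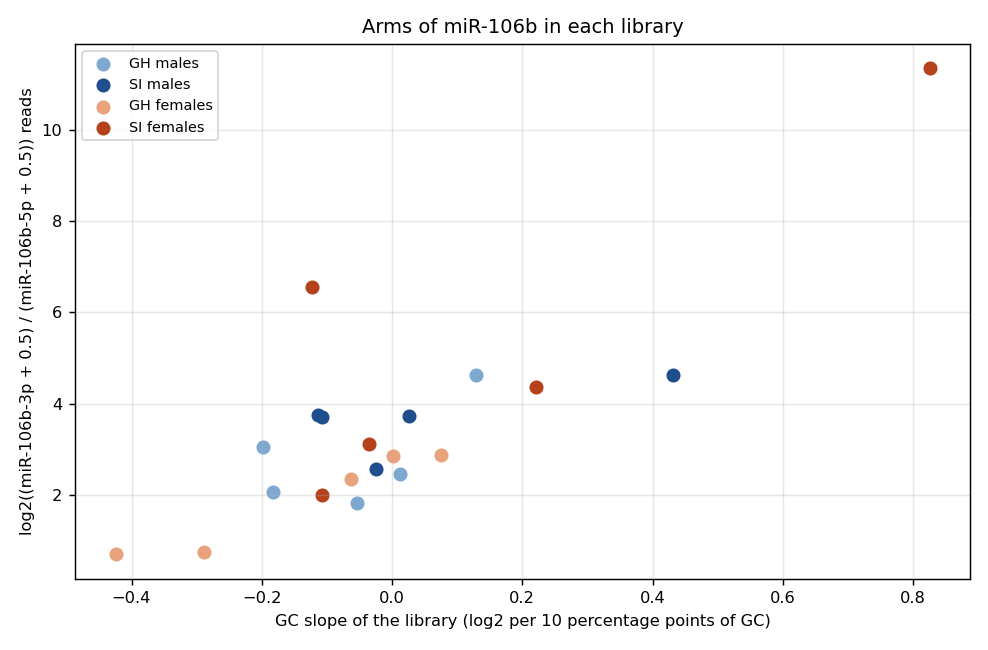
The log2 ratio of miR-106b-3p to miR-106b-5p reads, with 0.5 added to each, against the GC slope of the library; each point is a rat, coloured by group. SI female 16, at a ratio of 11.3 and a slope of 0.83, stands far from the others, and GH females 16 and 17 have the lowest ratios, 0.70 and 0.75, and the lowest slopes.

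The arm ratio moved with a property of the libraries. For each library a GC slope was computed, the change, per 10 percentage points of GC content, of a miRNA's deviation from its mean over all libraries. The slope ranged from -0.42 in GH female 16 to 0.83 in SI female 16 and averaged -0.06 in GH males, 0.04 in SI males, -0.14 in GH females and 0.16 in SI females. The miR-106b arms differ in GC content, 42.9% in the 5p arm and 63.6% in the 3p arm. After the group means were subtracted, the arm ratio had a Pearson r of 0.78 with the GC slope over the 20 libraries, which are the same libraries from which the slope was computed. SI female 16 had the highest slope and no listed read of miR-106b-5p, so its ratio was set by the 0.5 added to each count, and without it r was 0.48 over 19 libraries.

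The members that rose had GC contents at or above the middle of the range, 50% in miR-25-3p, 57.1% in miR-92a-3p and 63.6% in miR-106b-3p, where the median over all miRNAs tested was 47.8%. miR-93-5p, at 52.2%, did not pass, and the other 6 members ranged from 34.8% to 47.8%. Within groups, levels of miR-92a-3p (r = 0.58) and miR-106b-3p (r = 0.62) went with the GC slope, and levels of miR-106b-5p (r = -0.76), miR-93-5p (r = -0.68) and miR-19b-3p (r = -0.50) went against it. miR-25-3p (r = -0.09) and miR-20a-5p (r = -0.01) had little relation to it. Without SI female 16, r was 0.51 for miR-92a-3p, 0.52 for miR-106b-3p, -0.43 for miR-106b-5p and -0.70 for miR-93-5p. It was then -0.34 for miR-19b-3p, -0.049 for miR-25-3p and -0.26 for miR-20a-5p. Leaving out that library moved r from -0.38 to -0.57 for miR-17-5p, from -0.35 to -0.51 for miR-19a-3p and from -0.087 to 0.0084 for miR-18a-5p. When the GC trend was removed within each library, which ended the calls of miR-92a-3p and miR-106b-3p, miR-25-3p kept its call (averaged log2 fold change 0.62, edgeR adjusted p = 0.0031). In males miR-25-3p also kept its call (0.84, edgeR adjusted p = 0.0086). A second GC setting also removed the mean deviation of each library. It called all 3 members for the average, with the median log2 fold change of all miRNAs moved to 0.35 and 30.2% of them called. Across the 500 miRNAs the averaged log2 fold change had a Pearson r of 0.20 with GC content, 0.09 in males and 0.22 in females, where miRNAs share libraries and are not independent.

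**Figure D4:**
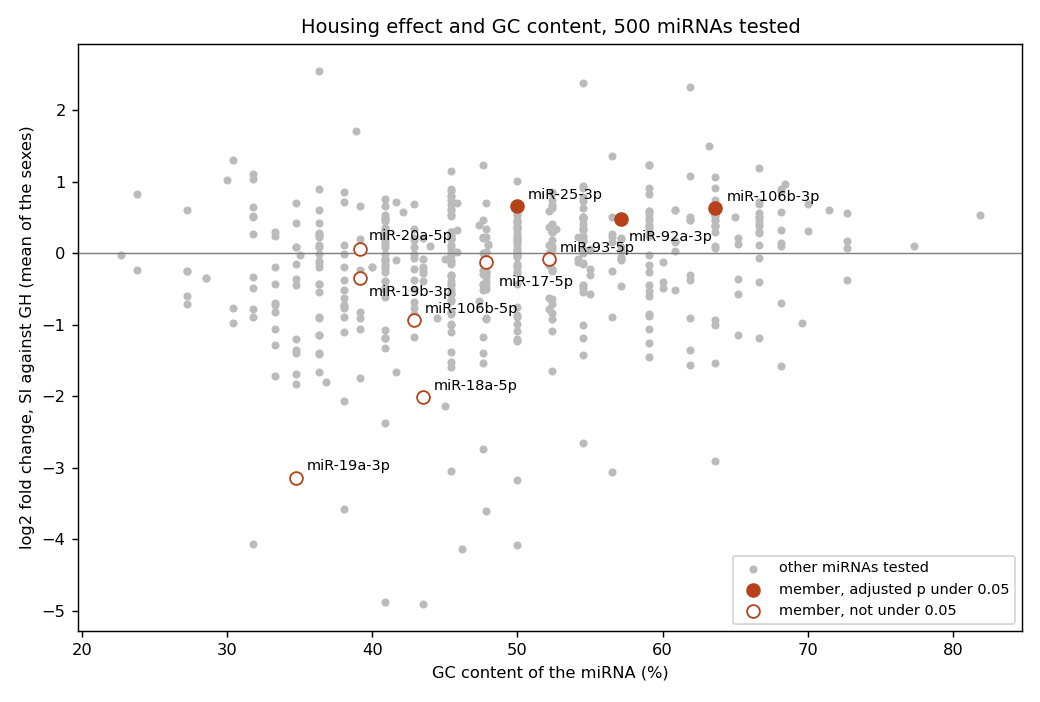
Averaged log2 fold change of SI against GH against GC content for the 500 miRNAs tested; grey points are other miRNAs, filled red-brown points are members with an adjusted p under 0.05 and open red-brown points are the other members. The 3 filled members lie between 50% and 63.6% GC, and the point of miR-19a-3p is a fitted value that bounds nothing, since all SI females are listed at 0.

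Within groups, the members' levels were related to different degrees. Over the 20 libraries, with group means subtracted from log2 normalized reads, miR-92a-3p had a Pearson r of 0.74 with miR-106b-3p of the other cluster, 0.47 with miR-25-3p and -0.71 with miR-106b-5p. Within miR-106b-25, the arms of miR-106b had an r of -0.67, miR-106b-5p and miR-93-5p 0.43, miR-106b-3p and miR-25-3p 0.39 and miR-93-5p and miR-25-3p 0.27. Within miR-17-92, miR-17-5p and miR-20a-5p had an r of 0.35, miR-19a-3p and miR-19b-3p 0.44 and miR-17-5p and miR-92a-3p -0.17. These are descriptions, and the points share sequencing depth and the GC property described above.

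The miRNAs outside the clusters whose levels were most like each member's were found by the same measure, 2 for each. They are the highest among all other miRNAs tested, so each r is raised by that choice. Of those named below, miR-3473, miR-300-5p, miR-879-3p and miR-292-5p averaged only 1.58, 1.95, 1.07 and 0.902 RPM. For the abundant members they were miR-151-3p (r = 0.86) and miR-92b-3p (0.83) for miR-92a-3p, and miR-148b-3p and miR-3473 (both 0.77) for miR-25-3p. For miR-106b-3p they were miR-129-5p (0.80) and miR-666-5p (0.77), and for miR-93-5p miR-26b-5p (0.77) and miR-100-5p (0.76). miR-106b-5p was most like miR-30e-5p (0.93) and miR-136-5p (0.90), and miR-17-5p most like miR-154-5p (0.85) and miR-181a-1-3p (0.79). For the remaining members the values were lower, with miR-193b-3p (0.63) and miR-7a-1-3p (0.58) for miR-20a-5p, miR-487b-5p (0.73) and miR-3084a-5p (0.69) for miR-19b-3p, miR-212-3p (0.68) and miR-300-5p (0.57) for miR-18a-5p, and miR-879-3p (0.72) and miR-292-5p (0.65) for miR-19a-3p.

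The reads of a member include isomiRs, forms that differ from the reference at an end, by added bases or by a mismatch. The members differed in how many of their reads were the reference form. The share over all libraries together was 70.3% for miR-25-3p and 55.8% for miR-93-5p, but 2.88% for miR-106b-3p and 0.952% for miR-92a-3p. The commonest forms of miR-92a-3p and miR-106b-3p are printed below because they show where these miRNAs ended in this tissue. They are written as DNA, as in the deposited reads, with bases beyond the reference end in capitals.
miR-92a-3p, reference plus T: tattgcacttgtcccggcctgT
miR-92a-3p, reference plus TA: tattgcacttgtcccggcctgTA
miR-92a-3p, reference plus TAT: tattgcacttgtcccggcctgTAT
miR-106b-3p, C missing: ccgcactgtgggtacttgctg
miR-106b-3p, GC missing: ccgcactgtgggtacttgct
The first of these had 247336 reads, 65.0% of all miR-92a-3p reads, the second 42306 (11.1%) and the third 16374 (4.30%). The miR-106b-3p forms had 5791 (30.1%) and 5551 reads (28.9%), and 61.3% of its reads were shortened at the 3′ end. All these forms keep the seed. For the other members with enough reads to rank, the next commonest forms after the reference were the reference plus A for miR-25-3p (5.83% of its reads), miR-93-5p (10.2%) and miR-17-5p (28.4%), the reference plus T for miR-20a-5p (24.3%), the reference plus A, the next base of its hairpin, for miR-106b-5p (21.6%), and the reference without its last base for miR-19b-3p (18.7%). miR-18a-5p was led by a form 2 bases short (58 reads), and the reference led miR-19a-3p (69 reads). The share of miR-92a-3p reads with a shifted 5′ end, which alters the seed, was 1.73 ± 0.454% per library (n = 20), and that of miR-106b-3p was 7.33 ± 2.28%.

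The reads listed as miR-92a-3p plus T bear on the locus they came from. Of the miR-92a-3p reads that ran past the reference end, 97.6% had T as the next base (96.5 to 98.8% per library) and 2.09% had A. The precursor of chromosome 15, mir-92a-1, continues past the end as CCTGTTGA, with T as the next base after CCTG, and the X-linked mir-92a-2 as CCTGAGGA, with A as the next base. The authors' pipeline listed the reads with a single extra T under mir-92a-2, as an added base. By their next base they match mir-92a-1, and a T added after cutting gives the same read, so the origin of a single read cannot be told apart. Reads with A as the next base made up 1.67 ± 0.496% in GH males, 2.50 ± 0.525% in SI males, 1.79 ± 0.379% in GH females and 2.10 ± 0.767% in SI females. For miR-17-5p, 504 of the extended reads had A and 224 had T as the next base, and none had C, the next base of the X-linked copy (GTAGCTTC), whereas the chromosome 15 copy continues with T (GTAGTGGT).

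**Figure D5:**
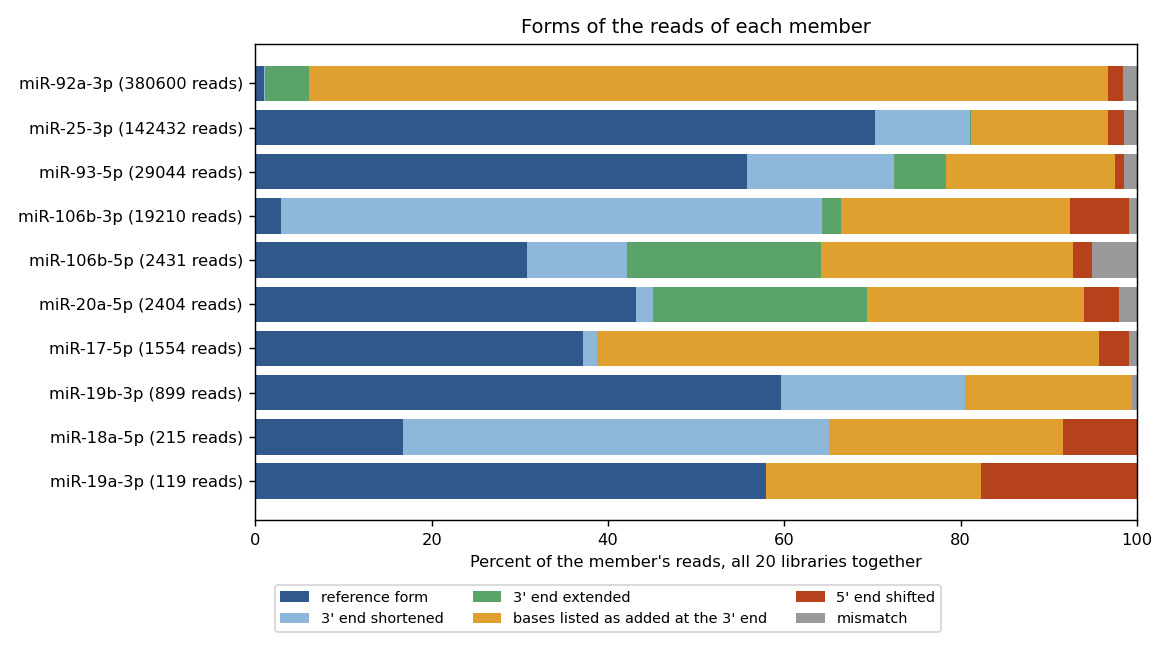
Forms of the reads of each member, as percent of its reads over all 20 libraries together, with the number of reads beside each name; colours mark the reference form, shortened or extended 3′ ends, bases listed as added at the 3′ end, shifted 5′ ends and mismatches, and a read with a mismatch or a shifted 5′ end is placed in that class whatever its 3′ end. The reference form is 70.3% of miR-25-3p and 0.952% of miR-92a-3p, most of whose reads are listed with an added base, and 61.3% of the reads of miR-106b-3p are shortened at the 3′ end.

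The make-up of the reads was compared between SI and GH rats with limma on the log2 odds of each share, over the 232 miRNAs with at least 100 reads in every library, which include miR-92a-3p, miR-25-3p, miR-93-5p and miR-106b-3p. None of these 4 passed for the share of the reference form, of shifted 5′ ends or of bases listed as added, averaged over the sexes or within a sex. Over all 232 miRNAs the averaged comparison called 10.3%, 1.72% and 0 (15.1% at an unadjusted p under 0.05) for the 3 shares, and in males 2.16%, 0 and 0. The share of miR-92a-3p reads with bases listed as added was 94.9, 96.2, 93.7, 94.4 and 94.8% in GH males and 92.1, 91.5, 91.5, 93.7 and 91.1% in SI males. The male groups were separated, narrowly, by the 93.69% of SI male 17 and the 93.73% of GH male 18, and 3.45% of the 232 miRNAs had male groups that did not overlap on this share. The log2 odds differed by -0.68 (SE 0.22, limma adjusted p = 0.19) in males and 0.02 (SE 0.22, adjusted p = 0.97) in females. SI female 17, at 91.4%, had the lowest share of the SI females. Within a sex, this share was not compared without the rats numbered 17.

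Among single isomiRs, 104 of the 10290 tested belonged to members. None passed averaged over the sexes, where 0.253% of all isomiRs did (edgeR, 13 of the members' isomiRs at an unadjusted p under 0.05, 12 higher and 1 lower, beside 14% of all). None passed in males (0.00972% of all; 12 of the members' isomiRs unadjusted, beside 9.11% of all) or in females (0 of all; 11 unadjusted, beside 9.22%). Without SI female 10, 6 of the members' isomiRs passed for the average, 4 higher and 2 lower, among 247 isomiRs in all. Within a sex the lowest adjusted p was 0.22 in males, for the reference form of miR-25-3p (log2 fold change 0.78), and 0.32 in females, for miR-92a-3p plus TA (0.59). With all rats the lowest adjusted p for the average was that of miR-92a-3p plus TA, with an averaged log2 fold change of 0.54 (SE 0.14, edgeR adjusted p = 0.083). The reference form of miR-25-3p had 0.48 (SE 0.13, edgeR adjusted p = 0.099). The commonest form, miR-92a-3p plus T, had 0.15 (SE 0.11, adjusted p = 0.61), below the 0.48 of all miR-92a-3p reads in the miRNA fit. Both fits have their own scale, and the isomiR scale lay 0.20 higher in SI than in GH rats relative to the miRNA scale, so a log2 fold change in the isomiR fit is lower by that amount.

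Markers of cell types that a tissue punch can hold were examined by the same fit. Of 24 tested, 4 (16.7%) passed for the average, a share near the 17.6% of all miRNAs, and DESeq2 called 7. Levels below are summed RPM of each list as group medians. The 4 erythroid miRNAs were at 1142 in GH males, 1728 in SI males, 1209 in GH females and 1756 in SI females, and 1 of 4, miR-486, rose (averaged log2 fold change 0.92, edgeR adjusted p = 0.0039), while the defining miR-451-5p had 0.09 (adjusted p = 0.97). The 2 endothelial miRNAs were at 1182, 624, 1222 and 591 in the same order, and miR-126a-3p fell (-1.11, edgeR adjusted p = 0.011). The 2 mural miRNAs were at 13257, 5227, 14332 and 6494, and miR-143-3p fell (-0.99, adjusted p = 0.0059). Of 3 oligodendrocyte miRNAs (3631, 4341, 3587 and 2865), miR-338-3p fell (-1.74, adjusted p = 0.016), while miR-219a-5p had -2.07 (adjusted p = 0.089) and miR-219a-2-3p 0.30 (adjusted p = 0.30). By edgeR none passed among the 4 choroid plexus and epithelial miRNAs tested of 7 (1031, 1195, 1833 and 1137). The summed level of that list varied widely between rats, and the highest library of each group was at 2798, 16882, 6601 and 3661 RPM in the same order. None passed by edgeR among the 5 myeloid and microglial (115, 167, 136 and 66.6) or the 4 neuronal miRNAs (171804, 144988, 167158 and 169059), the last with the abundant neuronal miR-124-3p and miR-9a-5p. DESeq2 called miR-124-3p lower for the average (-0.42, DESeq2 adjusted p = 0.047) and in males (-0.64, adjusted p = 0.049), where edgeR gave adjusted p-values of 0.10 and 0.12. The part of these differences in the values of miR-25-3p, miR-92a-3p and miR-106b-3p was not tested.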

How the data were processed

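Per the labels, small RNA libraries were made from 215 ng of total RNA of adBNST punches with 22 PCR cycles and sequenced on an Illumina HiSeq. The authors trimmed adapters with cutadapt, used seqbuster, run inside bcbio-nextgen, to place reads on rat miRBase 21 precursors, and deposited, for each library, whole-number counts of every distinct sequence with its miRNA, mismatch, added bases and end differences. These counts were not normalized, and the lowest listed was 2. Versions of cutadapt and seqbuster are not given in the sources used here.

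Counts were summed per miRNA and per isomiR, and a read listed under more than 1 miRNA was counted under every such name (618 reads, 0.162%, of miR-92a-3p and 9 reads of miR-25-3p). Features with at least 10 counts in at least 5 libraries were tested in edgeR 4.0.16 (R 4.3.3) with TMM normalization, a mean for each of the 4 groups and the quasi-likelihood F test, with Benjamini-Hochberg adjustment and a threshold of 0.05. Each housing effect averaged over the sexes is the mean of the male and the female effect. Each standard error was taken from the fold change on the log2 scale divided by the root of F. DESeq2 1.42.0, the authors' tool, was an alternative, without the count filter and on 586 miRNAs. Shares and arm ratios (pseudocount 0.5) were fitted with limma 3.58.1. Descriptions used Python 3.11.15, pandas 2.3.3, numpy 2.4.6 and matplotlib 3.10.9. RPM are reads per 1000000 miRNA reads of a library. Intervals over rats include counting error, and PCR copies were not removed by molecular identifiers.

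The 10 members, their relatives and the marker lists were chosen with earlier results of these data known. Named are all members, every relative with reads that was tested, the 2 miRNAs most like each member, and, of each member's commonest isomiRs and those of lowest p, the leading ones. miR-32-5p, miR-363-3p and miR-363-5p are among the relatives. Mature sequences, coordinates and seeds are from RefSeq (GRCr8), in which 454 of the 500 miRNAs tested were found by name. The steps were tested on simulated data. Alternatives were another scaling, test, filter and pseudocount, dropping ambiguous or mismatched reads, exchanging or leaving out the rats numbered 17, removing GC trends, a replicate block and leaving out each library.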

Additional observations from a re-analysis of the deposited data

Results flagged for a closer look

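In 10 of the 91 groups of 5 libraries examined, a single library stood apart from the other 4 by Dixon's criterion (gap over range above 0.71), and chance alone gives about 1 in 20. On the scale of log2 normalized reads, miR-17-5p was at 0 in SI female 17, against 5.19 to 7.10 in the other SI females. miR-18a-5p was at 4.59 in SI male 19 and at 4.20 in SI female 10, and it was listed at 0 in the other rats of both groups. miR-93-5p was at 9.27 in GH female 15, against 10.5 to 10.8 in the other GH females. The log2 ratio of miR-18a-3p to miR-18a-5p was 4.52 in GH female 16 and 0 to 0.56 in the other GH females. The share of the miR-106b-25 members in the reads of all 10 was 26.7% in GH male 16, against 33.6 to 34.1%, and 29.5% in SI male 17, against 37.6 to 39.6%. The share of miR-25-5p in the reads of both miR-25 arms was 7.56% in SI male 19, against 2.84 to 4.18%. The share of miR-93-3p in the reads of both miR-93 arms was 4.52% in GH female 15, against 1.84 to 2.58%, and 19.9% in SI female 16, against 0 to 5.35%. SI female 16 is also the library with the highest GC slope and without a listed read of miR-106b-5p.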

How the results depend on the processing

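Averaged over the sexes, miR-25-3p passed in 20 of 20 fits that left out a library (log2 fold change 0.59 to 0.70) and in 10 of 10 other settings on these rats (0.62 to 1.04), and miR-106b-3p in 20 of 20 (0.55 to 0.69) and 8 of 10 settings. The number of members called for that average was 2 to 4 when a library was left out, the highest count including miR-18a-5p with a whole SI group at 0. It was 1, miR-25-3p, with the GC trend removed (miR-92a-3p 0.31, miR-106b-3p 0.34), 3 with the GC trend and the mean deviation of each library removed, and 1 without the rats numbered 17. In males it was 0 to 1 when a library was left out. In females it was 0 to 2, with 2 without SI female 10, 2 with DESeq2, 1 (miR-106b-3p) with at least 10 counts in every library, and 3 with the GC trend and the mean deviation of each library removed, a setting that moved the median log2 fold change of all miRNAs to 0.35 averaged and 0.41 in females. Of the members' isomiRs, 6 passed with at least 10 counts in every library (6 of 29, where 301 of 2405 of all passed), and 0 to 6 when a library was left out (6 without SI female 10). Of the member hairpins' arm ratios, 0 to 1 passed when a library was left out. Over all miRNAs, edgeR called 20 in males and 2 in females, where DESeq2 called 60 and 67 and a minimum of 10 counts in every library gave 40 of 307 in each sex. Averaged over the sexes it called 88, with 132 by DESeq2, 151 with the GC trend and mean deviation removed, 58 without GH female 16 or 17 and 50 without the rats numbered 17. Without SI female 16 there were 73 calls in males, and without SI female 10 there were 63 in females. The interaction had 2 calls, 6 with DESeq2 and 0 to 2 when a library was left out. Of the 7 uncalled members, 4 changed sign under some alternative, and miR-18a-5p, miR-19a-3p and miR-106b-5p were below 0 in all alternatives run on these rats, which share libraries. miR-18a-5p and miR-19a-3p met the count minimum mostly through GH libraries, so nothing is read from their sign. miR-17-5p was 0.046 without the rats numbered 17, 0.24 with the GC trend and mean deviation removed and -0.30 to 0.044 when a library was left out. miR-20a-5p was -0.077 without the rats numbered 17 and -0.12 to 0.22 when a library was left out. miR-19b-3p was 0.25 and miR-93-5p 0.23 with the GC trend and mean deviation removed, and miR-19b-3p was -0.61 to 0.014 when a library was left out. The cause of these changes was not tested. GC settings and leaving out the rats numbered 17 were chosen after seeing the data.

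GH and SI rats of a sex share 5 numbers (10 rats), but same-numbered rats did not deviate together (correlations -0.30 to 0.09), so the numbers were not taken as a pairing. With the replicate block on those 10 rats, 0 members were called averaged over the sexes, in males or in females. The same rats without the block gave 0 averaged, 0 in males and 1 in females. Under the block and without it, respectively, miR-20a-5p was -0.21 and -0.24 and miR-19b-3p 0.34 and 0.14. Depth limits the 6 members under 21 RPM, which had 119 to 2431 reads over all libraries. A listed 0 can hide a single read per sequence, and the 5 rats of a group limit the tests within a sex.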
